A study of Mus musculus with 123 samples.

Results

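The cortex of mice on the third day after a single episode of lost sleep was compared with the cortex of undisturbed mice killed at the same time of day. The comparison used 6 sleep-deprived animals, 3 at T72 and 3 at T78, and 13 controls. Together they are 19 of the 62 animals with RNA values in the deposited table. All 13842 genes of the deposited table were compared. Every animal was a male C57BL/6J mouse kept on 12 h of light and 12 h of darkness. In the deprived groups, gentle handling prevented sleep over the first 6 h of light on Day 1, at an age of 11 to 12 weeks, and the mice were then left undisturbed. T72 (ZT0, light onset) fell 42 h after the end of deprivation and T78 (ZT6, 6 h into the light) fell 48 h after it. The T72 animals were set against 8 undisturbed ZT0 animals, labelled T0 or T24, and the T78 animals against 5 undisturbed ZT6 animals, labelled T6. The mean of both differences was taken as a summary of Day 3. Each library came from the dissected cortex of 1 animal, and the same tissue also gave an ATAC-seq library, which measures open chromatin.

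Sleep loss is known to induce immediate early genes such as Arc and Fos in cortical neurons, and to lower cold-inducible RNA-binding proteins such as Cirbp, whose levels follow brain temperature. It also alters part of the circadian clock, a feedback loop in which CLOCK and BMAL1 (encoded by Arntl) activate their own repressors (the Per and Cry genes, Nr1d1 and Ciart) and output factors such as Dbp, Tef and Hlf. The clock gives these genes a daily rhythm in cortex. Whether any of them still differs from its usual level after a full cycle of recovery sleep is the question that T72 and T78 address.

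Promoter sequences are shown for the 3 clock genes with the largest differences at T72, Dbp, Nr1d1 and Ciart, and for Mgll, the gene with the smallest p in the mean of both differences. The lines below give the 250 bases before 1 annotated transcript start of each gene, 5′ to 3′ on the gene's strand, from RefSeq on build GRCm38.p6. For Dbp and Ciart the annotated gene starts further upstream, so that 147 and 29 of the bases lie inside the annotated gene. Capitals mark the E-box CACGTG, the site that CLOCK and BMAL1 bind. The windows are chr7:45704997-45705246 (plus strand) for Dbp, chr11:98775378-98775627 (minus strand) for Nr1d1, chr3:95882229-95882478 (minus strand) for Ciart and chr6:88724162-88724411 (plus strand) for Mgll.
Dbp: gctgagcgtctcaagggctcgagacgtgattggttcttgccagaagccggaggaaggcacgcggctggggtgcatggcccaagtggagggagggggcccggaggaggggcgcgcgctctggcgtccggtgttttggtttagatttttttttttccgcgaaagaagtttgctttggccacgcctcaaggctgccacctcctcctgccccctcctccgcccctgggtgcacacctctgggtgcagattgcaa
Nr1d1: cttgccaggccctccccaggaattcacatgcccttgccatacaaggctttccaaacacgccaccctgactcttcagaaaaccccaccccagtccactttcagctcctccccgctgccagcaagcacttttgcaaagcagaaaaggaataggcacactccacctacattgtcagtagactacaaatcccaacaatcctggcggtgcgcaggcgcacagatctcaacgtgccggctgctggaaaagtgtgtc
Ciart: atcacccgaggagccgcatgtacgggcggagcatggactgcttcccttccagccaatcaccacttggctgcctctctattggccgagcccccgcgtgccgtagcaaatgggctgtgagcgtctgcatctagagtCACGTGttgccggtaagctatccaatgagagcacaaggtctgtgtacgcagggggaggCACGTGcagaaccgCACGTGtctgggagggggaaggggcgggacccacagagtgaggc
Mgll: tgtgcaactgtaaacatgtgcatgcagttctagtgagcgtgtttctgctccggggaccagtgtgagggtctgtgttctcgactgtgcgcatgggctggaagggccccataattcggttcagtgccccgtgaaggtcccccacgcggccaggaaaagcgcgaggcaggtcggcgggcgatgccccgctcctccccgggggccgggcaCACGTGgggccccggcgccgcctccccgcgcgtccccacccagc
The Ciart window held 3 matches, which began 116, 58 and 44 bases before the transcript start used, and the Mgll window held 1, which began 44 bases before it. The windows of Dbp and Nr1d1 held none, which says only that these letters are not in this stretch. The palindromic E-box reads the same on both strands and was found in 1978 of 32851 windows of this length (6.02%) and in those of 5 of the 18 clock genes that have one, namely Bhlhe41, Ciart, Cry1, Per1 and Tef. The D-box TTATGTAA, searched on both strands, is the site of DBP, TEF, HLF and the repressor NFIL3. It was found in 269 windows (0.819%) and among the clock genes in that of Per3.

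Few genes passed the test against controls on Day 3, which does not show that the others were unchanged. At T72, Dbp was the single gene of 13842 to pass an adjusted p of 0.05 (limma, Benjamini-Hochberg over all genes), which is 0.00722% higher and 0% lower. At T78 no gene passed (0%), with a smallest adjusted p of 0.40 at Id4. For the mean of both differences no gene passed either (0%), with a smallest adjusted p of 0.079 at Mgll. At an unadjusted p below 0.05, 564 genes were higher (4.07%) and 517 lower (3.74%) at T72. At T78 these were 485 (3.5%) and 353 (2.55%), and for the mean 846 (6.11%) and 663 (4.79%). For comparison, the same fit called 2217 genes higher and 2155 lower at T30, the end of deprivation, against the same ZT6 controls. It called 79 higher and 97 lower at T48 and 1 at T54.

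The precision limits how small a difference could have been seen. The median standard error was 0.065 at T72, 0.069 at T78 and 0.049 for the mean, in log2 units, in which 0.25 is a 1.19-fold and 0.5 a 1.41-fold difference. The 95% interval of the mean difference lay wholly within 0.5 of 0 for 13658 genes (98.7%) and within 0.25 of 0 for 11942 genes (86.3%). At T72 these were 13338 (96.4%) and 9942 (71.8%), and at T78 they were 13365 (96.6%) and 9647 (69.7%). A lasting difference of 1.41-fold was thus outside the interval for nearly all genes, and one of 1.19-fold for most. In bulk tissue, fewer cells of a type and less RNA per cell cannot be told apart.

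The T72 and T78 differences share no library, but both come from the same fit and batch term. The error of that term enters both, so they are not fully independent. Across all genes they correlated at r = 0.198 (Pearson, a description, since genes are not independent replicates), and 8815 genes (63.7%) had the same sign on both. At an unadjusted p below 0.05 on both, 81 genes were higher, 56 were lower and 6 went opposite ways. Counted by libraries, 357 genes (2.58%) had all 3 T72 animals outside the range of the 8 ZT0 controls, 209 above and 148 below. All 3 T78 animals lay outside the range of the 5 ZT6 controls for 690 genes (4.98%), 363 above and 327 below. A smaller set of 36 genes (0.26%) lay outside on the same side at both, 22 above and 14 below.

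**Figure D1:**
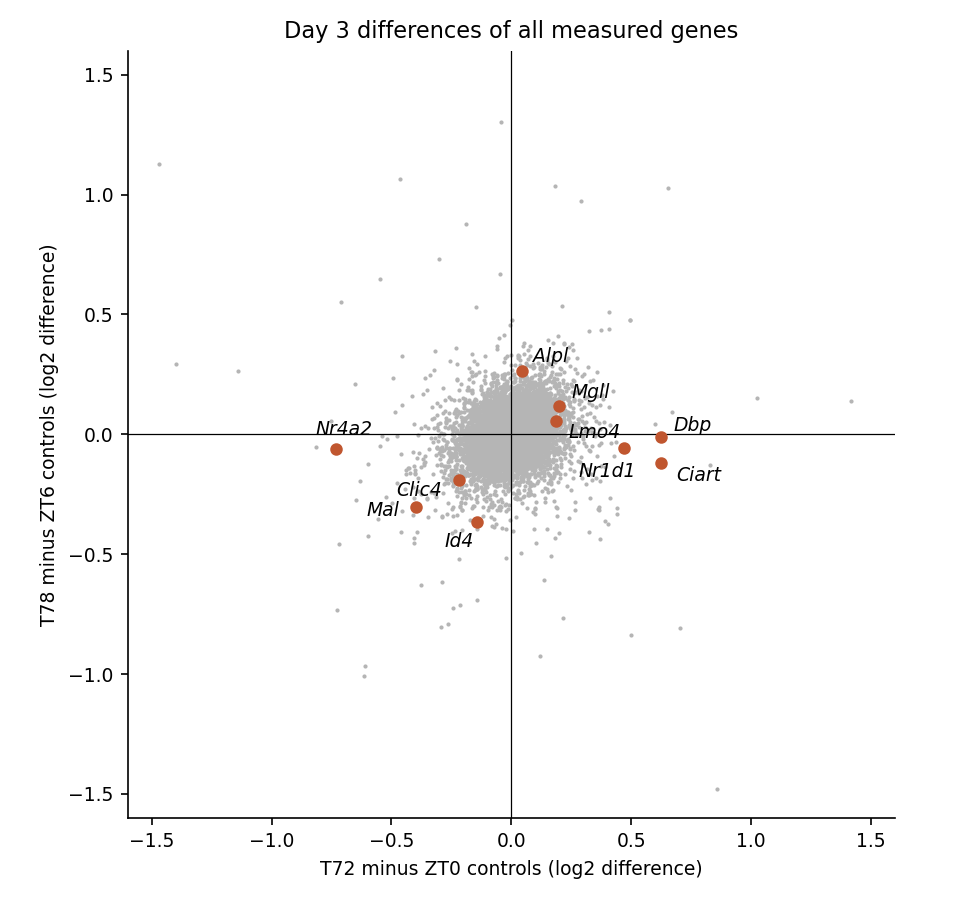
Each grey point is 1 gene, with its log2 difference from ZT0 controls at T72 on the x axis and from ZT6 controls at T78 on the y axis; orange points are named genes, and 7 genes lie outside the axes. Most genes lie close to 0 on both axes, Dbp, Nr1d1 and Ciart lie to the right at T72 but near 0 at T78, and Clic4 and Mal lie below 0 on both.

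Dbp, a transcription factor of the PAR bZIP family and a direct output of the clock, was higher at T72 than in ZT0 controls. Its log2 level was 5.85, 6.01 and 6.19 in the T72 animals, against 5.06 to 5.70 (median 5.40) in the 8 ZT0 controls. All 3 deprived animals thus lay above every control, yet below the ZT6 controls, where Dbp reached 6.39 to 6.74. The difference was 0.63 (SE 0.12, 95% interval 0.39 to 0.86, adjusted p = 0.0416). At T78 the levels were 6.51, 6.56 and 6.58, all inside the range of the ZT6 controls, and the difference was -0.01 (95% interval -0.26 to 0.24). The T48 animals, also at ZT0, had 6.06, 6.21 and 6.29, and the T54 animals had 6.37, 6.68 and 6.69. The direction of the T72 difference held in all 22 alternatives, with values from 0.54 to 0.71. The call was near the threshold and was lost in 14 of them, with adjusted p between 0.0114 and 0.282, among them batch 1 alone (0.71, adjusted p = 0.0712) and the T24 controls alone (0.54, adjusted p = 0.221).

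Other clock genes of the same arm stood on the same side as Dbp at T72 without passing the test. Nr1d1, which encodes the repressor REV-ERBα, had log2 levels of 6.28, 6.52 and 6.57 at T72 against 5.71 to 6.18 in ZT0 controls. All T72 animals lay above all controls, with a difference of 0.47 (SE 0.11, adjusted p = 0.105). Ciart, a repressor of CLOCK and BMAL1, had 4.63, 4.64 and 4.88 against 3.92 to 4.25, again without overlap, with a difference of 0.63 (SE 0.18, adjusted p = 0.306). Hlf, a PAR bZIP factor like Dbp, had 7.17, 7.19 and 7.28 against 6.96 to 7.09 (difference 0.21, adjusted p = 0.306). Bhlhe41, a repressor of the loop, had 4.39, 4.45 and 4.60 against 4.02 to 4.33 (difference 0.28, adjusted p = 0.507). Per3 (0.25) and Tef (0.19) were also higher at an unadjusted p below 0.05, although 1 or more T72 animals of each lay among the controls.

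In the clock list, the lower members at an unadjusted p below 0.05 were Arntl and Nfil3, neither called. Arntl, which encodes BMAL1, had log2 levels of 5.03, 5.12 and 5.26 at T72 against 5.21 to 5.35 in ZT0 controls, a difference of -0.14 (adjusted p = 0.542). Nfil3, which represses from the D-box, had 3.22, 3.38 and 3.45 against 3.41 to 3.91, a difference of -0.28 (adjusted p = 0.530). In both genes the groups overlapped by 1 or more animals. For Per1, Per2 and Cry1 no T72 difference reached an unadjusted p below 0.05.

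At T78 the clock list stood near its controls. Of its 22 genes, 8 were higher and 2 lower at T72 at an unadjusted p below 0.05, beside 4.07% and 3.74% of all genes, with a median difference of 0.11 against -0.003 over all genes. At T78 the counts were 2 and 0, beside 3.5% and 2.55% of all genes, with a median of 0.005 against 0.0004. Hlf had the smallest p at T78, with levels of 7.09, 7.14 and 7.25 against 6.95 to 7.11 in ZT6 controls, a difference of 0.15. Nr1d1 had 6.74, 6.95 and 6.96 against 6.86 to 7.06, and Ciart had 4.89, 4.99 and 5.31 against 4.69 to 5.41, both within or across the control range. The difference between T78 and T72 effects was itself tested. It was -0.64 for Dbp (SE 0.17) and -0.53 for Nr1d1, but no gene of 13842 passed for it (0%, limma, adjusted p of 1 throughout, 434 genes at an unadjusted p below 0.05). So the differences of the clock genes from their controls were not shown to change between T72 and T78.

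**Figure D2:**
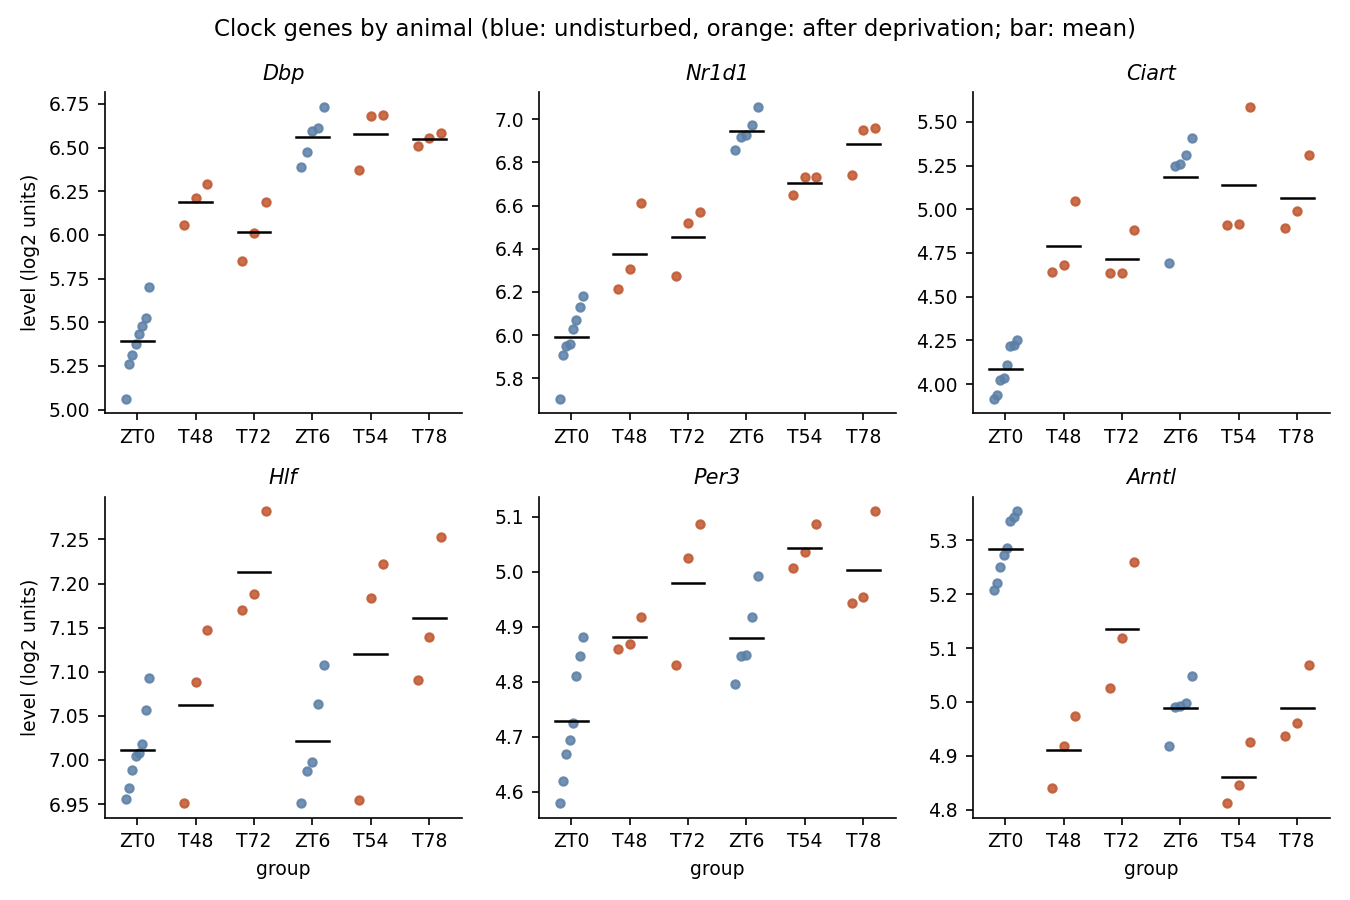
Log2 level of 6 clock genes (y axis) in each animal by group (x axis), with undisturbed controls in blue, deprived mice in orange and the group mean as a bar. For Dbp, Nr1d1 and Ciart the 3 T72 animals lie above all ZT0 controls, while the T78 animals lie among the ZT6 controls except for 1 lower animal for Nr1d1.

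Beyond the clock, the smallest p-values at T72 belonged to Lmo4 and Mgll among higher genes and to Zfp532, B4galnt3 and Aldh1b1 among lower genes. None of these 5 passed the test. Lmo4, a LIM-domain cofactor of transcription in cortical neurons, had log2 levels of 8.36, 8.36 and 8.41 at T72, above the 8.12 to 8.26 of all ZT0 controls. Its difference was 0.19 (SE 0.04, adjusted p = 0.0618), and the T78 difference was 0.05. Zfp532, a zinc finger protein, had 4.99, 5.04 and 5.13 against 5.18 to 5.38, a difference of -0.22 (adjusted p = 0.0731). B4galnt3, a glycosyltransferase, had 0.10, 0.29 and 0.55 against 0.62 to 0.93 (difference -0.46, adjusted p = 0.169). Aldh1b1, a mitochondrial aldehyde dehydrogenase, had 1.86, 1.95 and 1.98 against 2.098 to 2.36 (difference -0.31, adjusted p = 0.306). In each of these genes the T72 animals lay outside the range of the controls, as in 2.58% of all genes. At T78 their differences from ZT6 controls were closer to 0. The genes were chosen by their p at T72, so both observations follow in part from the choice.

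At T78 the genes nearest to the threshold were Higd2a, Ints3 and Alpl among higher genes and Id4, Aste1 and Socs6 among lower genes, none of them called. Id4, an inhibitor of basic helix-loop-helix transcription factors, had log2 levels of 4.62, 4.80 and 4.84 against 4.90 to 5.32 in ZT6 controls, a difference of -0.37 (SE 0.08, adjusted p = 0.40). Its T72 difference was -0.14. Alpl, the tissue-nonspecific alkaline phosphatase, had 3.22, 3.34 and 3.46 against 2.94 to 3.19 (difference 0.27, adjusted p = 0.685). Higd2a, a protein of the inner mitochondrial membrane, had 7.01, 7.03 and 7.05 against 6.86 to 6.97 (difference 0.13). Ints3, a subunit of the Integrator complex, had 5.28, 5.36 and 5.43 against 5.19 to 5.27 (difference 0.14). Aste1 had 2.81, 3.09 and 3.19 against 3.24 to 3.47 (difference -0.36), and Socs6, a suppressor of cytokine signalling, had 3.32, 3.37 and 3.43 against 3.47 to 3.69 (difference -0.23). All 3 T78 animals lay outside the control range for each of these 6 genes, as for 4.98% of all genes. The 6 were chosen by their p at T78, so this is a description.

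For the mean of both differences, the 3 higher genes with the smallest p were Mgll, Gas2l1 and Cntnap1 and the 3 lower ones Clic4, Cyp2j9 and Id4, with adjusted p between 0.0791 and 0.0828. Mgll, the lipase that breaks down the endocannabinoid 2-arachidonoylglycerol, had log2 levels of 7.14, 7.15 and 7.19 at T72 against 6.89 to 7.05 in ZT0 controls. At T78 it had 7.07, 7.08 and 7.09, within the 6.87 to 7.11 of ZT6 controls. Its mean difference was 0.16 (SE 0.03, adjusted p = 0.0791). Faah, the hydrolase that breaks down the endocannabinoid anandamide, was picked out after its values were seen. It had 6.48, 6.55 and 6.56 at T78 against 6.32 to 6.44 in ZT6 controls and overlapped its controls at T72, with a mean difference of 0.12 (SE 0.03, adjusted p = 0.0828).

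Cntnap1, Clic4 and Cyp2j9 lay outside the controls at both times, as did 36 of all genes (0.26%) on the same side. They were chosen by the mean of these same differences, so this is a description. Cntnap1, the axonal protein of the paranodal junction beside the node of Ranvier, had log2 levels of 6.85, 6.86 and 6.92 at T72 against 6.69 to 6.83, and 6.86, 6.93 and 6.95 at T78 against 6.70 to 6.85. Its mean difference was 0.15 (SE 0.03, adjusted p = 0.0828). Clic4, an intracellular chloride channel protein, had 4.99, 5.00 and 5.01 at T72 against 5.07 to 5.47, and 4.93, 4.94 and 4.99 at T78 against 5.02 to 5.20, with a mean difference of -0.20 (SE 0.04). Cyp2j9, a cytochrome P450, had 4.21, 4.24 and 4.33 at T72 against 4.33 to 4.62, and 4.06, 4.13 and 4.22 at T78 against 4.29 to 4.50, with a mean difference of -0.23 (SE 0.05). Gas2l1, which links microtubules to actin, had 5.80, 5.84 and 5.98 at T72 against 5.54 to 5.74, with a mean difference of 0.19 (SE 0.04). At T78 its 5.58, 5.60 and 5.77 overlapped the ZT6 controls (5.35 to 5.61).

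**Figure D3:**
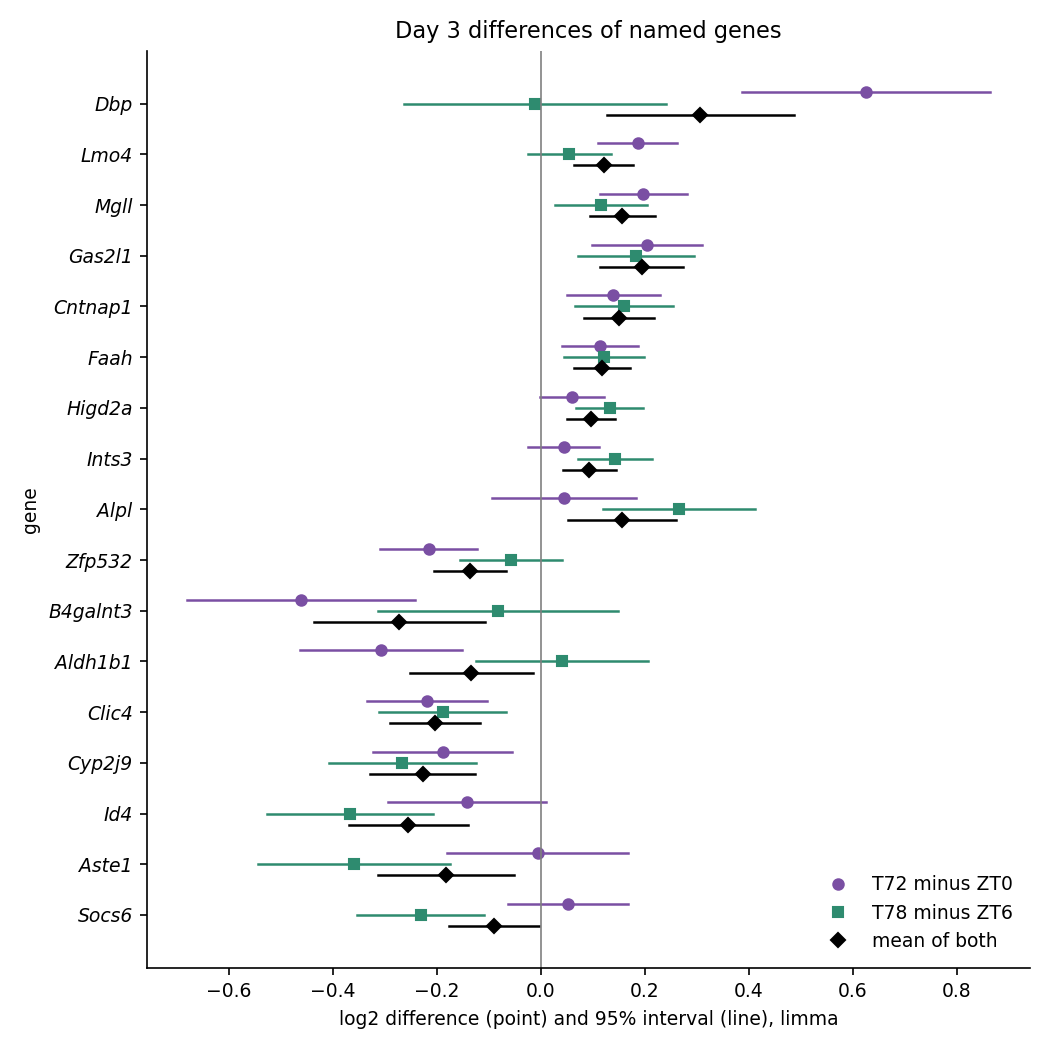
Log2 difference (x axis) of 17 named genes (y axis) with its 95% interval from limma, for T72 (circles), T78 (squares) and the mean of both (diamonds). The T72 interval of Dbp lies far to the right of its T78 interval, while the intervals of Mgll, Gas2l1, Cntnap1, Faah, Clic4 and Cyp2j9 lie on the same side of 0 at both times. All 17 genes were named for their values in these comparisons.

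To follow the response to deprivation itself, the T78 animals were compared directly with the 3 animals killed at T30, at the end of deprivation and at the same time of day. This contrast called 1890 genes higher (13.7%) and 1852 lower (13.4%). The genes named here were chosen for a large difference in it, so their distance from T30 is a description. Arc, an immediate early gene of synaptic plasticity, had log2 levels of 8.22 to 8.56 at T30 and 4.64, 4.99 and 6.89 at T78. Its ZT6 controls spanned 4.09 to 6.45, so 2 of the T78 animals lay inside the control range and 1 above it. Arc fell by 2.93 from T30 to T78 (SE 0.71, adjusted p = 0.00153). Fos, which encodes an AP-1 transcription factor, had 5.93 to 6.36 at T30 and 2.26, 2.44 and 5.04 at T78, and fell by 2.86 (SE 0.58, adjusted p = 0.000179). The highest T78 value of both Arc and Fos came from the same animal, T78S4. Junb fell by 1.79, Nr4a1 fell by 1.76, and Tnfrsf25, a receptor of the tumour necrosis factor family, fell by 1.80.

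Genes that were low at the end of deprivation rose by T78. Cirbp, the cold-inducible RNA-binding protein, had log2 levels of 6.01 to 6.19 at T30 and 6.94, 6.95 and 7.01 at T78, beside 6.95 to 7.12 in ZT6 controls. It rose by 0.89 (SE 0.09, adjusted p = 3.69e-10). Pla2g4e, a phospholipase, had 2.32 to 2.56 at T30 and 3.99, 3.99 and 4.07 at T78, within the 3.35 to 4.18 of controls, and rose by 1.59 (SE 0.19). Zfp46, a zinc finger protein, rose by 0.96 (SE 0.08), from 4.64 to 4.77 at T30 to 5.59 to 5.71 at T78, where 2 of its 3 animals lay above the 5.43 to 5.68 of controls. Frzb, a secreted antagonist of Wnt signalling, rose by 0.94, and Dbp by 0.95. Frzb had 4.37, 4.38 and 4.59 at T78, all above the 3.96 to 4.29 of ZT6 controls, although its difference from them (0.31) was not called. Opalin, a myelin gene picked out after its values were seen, had 2.87 to 3.37 at T30 and rose by 0.69 (SE 0.14), but its 3.8, 3.92 and 3.92 at T78 lay below the 3.97 to 4.29 of all ZT6 controls (difference -0.26, adjusted p = 0.817).

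Sets of genes were taken from T30 against ZT6. T30 and T78 were set against the same ZT6 controls, and the sets were chosen on the T30 libraries. The 2217 genes called higher at T30 had a median difference from controls of 0.26 then and 0.02 at T78, where 2151 (97%) had an interval within 0.5 of 0, beside 96.6% of all genes. The 2155 genes called lower had medians of -0.26 and -0.01, with 2124 (98.6%) within 0.5 of 0. No gene of the table was called at T78, so none of these was. In T78 minus T30, 1525 of the former (68.8%) were called lower and 1521 of the latter (70.6%) were called higher. In that contrast 0 were called further away. It uses the same T30 libraries as the choice of the sets, so a return toward controls is partly built in.

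**Figure D4:**
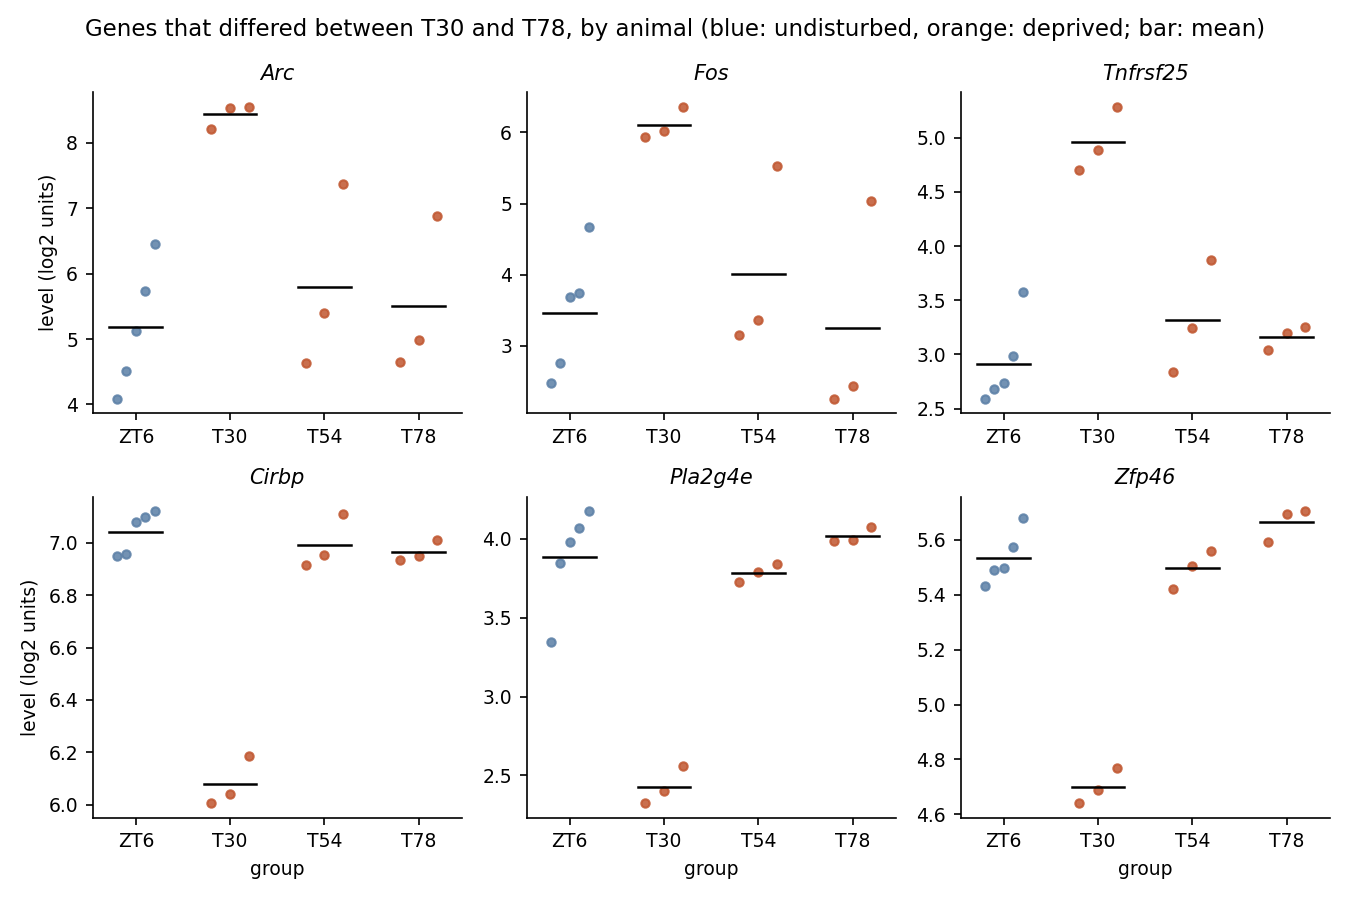
Log2 level (y axis) of 6 genes in each animal (points) and group mean (bars) in ZT6 controls (blue) and in deprived mice (orange) at T30, T54 and T78 (x axis). Arc, Fos and Tnfrsf25 are high and Cirbp, Pla2g4e and Zfp46 low at T30, and the T78 animals lie in or near the control range, with 1 animal high for Arc and Fos.

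Among the 31 gene lists, oligodendrocyte markers were the list with the median farthest from 0. Oligodendrocytes form the myelin sheath of axons. All 12 markers had a negative difference at T72, at T78 and in the mean, although none was called. At an unadjusted p below 0.05, 10 were lower at T72, 3 at T78 and 11 in the mean, beside 3.74%, 2.55% and 4.79% of all genes. None was higher. The list had medians of -0.26, -0.17 and -0.22 against medians of all genes within 0.003 of 0. Over the alternatives the count in the mean ranged from 6 to 12, and the sign of all 12 held under both other scalings. Mal, a protein of myelin membranes, had log2 levels of 6.14, 6.20 and 6.60 at T72 against 6.44 to 7.05 in ZT0 controls, and 6.18, 6.25 and 6.39 at T78 against 6.28 to 6.81. Its mean difference was -0.35 (SE 0.08, adjusted p = 0.0931). Mbp, myelin basic protein, had 9.80, 9.89 and 10.31 at T72 against 10.03 to 10.46, and Mog had 4.86, 4.97 and 5.30 against 5.11 to 5.64. In Mal and Mbp the groups overlapped at both times, while Mog overlapped at T72 and at T78 lay at 5.11, 5.16 and 5.18, below the 5.21 to 5.62 of all ZT6 controls.

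Averaged per library, the oligodendrocyte markers spanned 5.94 to 6.43 at T72 and 6.05 to 6.28 at T78, beside 6.22 to 6.62 in ZT0 and 6.17 to 6.54 in ZT6 controls. The T48 animals, also at ZT0, had 6.58 to 6.73, above the T72 animals. The mean level of this list thus differed between groups of deprived mice killed at the same hour. Cntnap1, which lies on the axonal side of the same junctions as myelin, had the opposite sign. The part of the dissected tissue in these values was not tested. Of 11 markers of oligodendrocyte precursors, Bcas1 (mean -0.16) had the smallest p, and 6 were above 0 and 5 below.

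**Figure D5:**
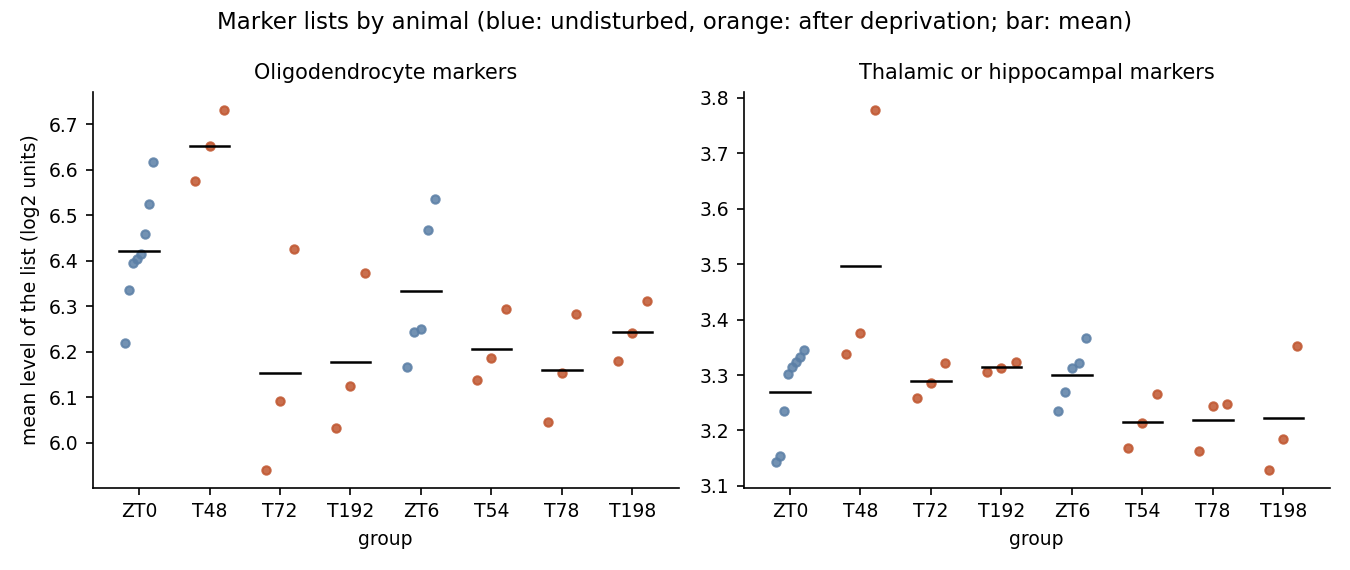
Mean log2 level of the oligodendrocyte list and of the thalamic or hippocampal list (y axes) in each animal by group (x axes), with controls in blue, deprived mice in orange and the group mean as a bar. The oligodendrocyte values are high at T48 and low at T72 and T78, with 1 or more animals of each group outside the range of its controls. On the right, 1 T48 animal stands high.

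Markers of the labelled tissue were present in every group. Slc17a7, the vesicular glutamate transporter of cortical excitatory neurons, had log2 levels of 9.53 to 9.67 at T72 and 9.56 to 9.63 at T78. Ttr, the main transcript of choroid plexus, had 1.36 to 2.79 at T72 and 0.95 to 2.59 at T78, within the 0.80 to 3.08 of ZT0 and close to the 1.02 to 2.59 of ZT6 controls. Of other cell types, counts are given for the mean difference at an unadjusted p below 0.05, at which 6.11% of all genes were higher and 4.79% lower. Excitatory markers had 2 higher and 1 lower of 14 (Slc17a7 0.08), inhibitory markers 1 and 0 of 14 (Lamp5 0.12), astrocyte markers 1 and 0 of 13 (Atp1b2 0.10) and microglia markers 0 and 0 of 13. At T72 alone, 4 of the 13 microglia markers were higher, beside 4.07% of all genes, with the smallest p at Tmem119 (0.22), whose T78 difference was -0.005. Endothelial markers had 1 and 0 of 13 (Emcn 0.18), mural markers 1 and 0 of 11 (Notch3 0.13) and meningeal markers 1 and 0 of 10 (Igf2 0.23), with 9 of the 10 meningeal markers above 0. Choroid plexus (4 of 11 measured, Cldn1 -0.12) and blood markers (5 of 8 measured, Alas2 -0.11) had 0 and 0. All 5 measured blood markers lay above 0 at T72 and below 0 at T78. Striatal markers had 1 and 1 of 8 (Drd1 -0.23), and thalamic or hippocampal markers 0 and 1 of 10 (Plekhg1 -0.12). None of these members was called.

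No member of the neuronal gene groups was called. Of 22 immediate early genes, 18 had a difference below 0 at T72, with a median of -0.16, and 0 were higher and 4 lower at an unadjusted p below 0.05, beside 4.07% and 3.74% of all genes. At T78 the higher and lower counts were 1 and 0, with a median of -0.08. Nptx2, a secreted synaptic protein induced by activity, had log2 levels of 4.85, 4.93 and 5.11 at T72 against 5.10 to 5.80 in ZT0 controls, a difference of -0.42 (adjusted p = 0.326). Presynaptic genes had 5 higher and 0 lower of 26 in the mean, beside 6.11% and 4.79% of all genes. Their median was 0.04, with 21 above 0 and 5 below. Among them Syn1, a synaptic vesicle protein, lay above all controls at both times, at 8.86, 8.87 and 8.91 at T72 and 8.85, 8.87 and 8.89 at T78 against 8.67 to 8.85 and 8.72 to 8.84, with a mean difference of 0.12 (adjusted p = 0.157). Of all genes, 36 (0.26%) lay outside their controls on the same side at both times, 22 of them above. Syn1 was named for its p in these differences, so its place is a description. Postsynaptic genes had 5 and 0 of 28 (Dlgap3 0.18), with 20 above 0 and 8 below. Potassium channels had 4 and 2 of 26 (Kcnab1 -0.12), and neuropeptides 3 and 2 of 14 (Npy 0.14).

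No member of the remaining pathways was called either. Ribosomal protein genes had 1 higher and 3 lower of 44 in the mean, and 40 of the 44 differences were below 0 with a median of -0.04 (Rpl22 -0.11). Splicing and RNA-binding genes had 2 and 6 of 35, with 29 below 0. Rbfox3, the neuronal splicing factor NeuN, was on the other side, above all controls at both times, with a mean difference of 0.14 (adjusted p = 0.212). It was named for its p in this mean, so its place above the controls is a description. Endoplasmic reticulum chaperones had 0 and 2 of 24, with 21 below 0 (Xbp1 -0.14). Cytosolic heat shock genes had 2 and 1 of 23 (Hspa1b 0.23), cold-inducible genes 0 and 0 of 2 (Cirbp -0.05), and feedback regulators of MAP kinase signalling 1 and 0 of 14 (Dusp8 0.09). Genes responsive to glucocorticoids, the hormones of the stress response, had 0 and 2 of 19 (Cdkn1a -0.37). Cholesterol synthesis genes had 3 and 0 of 24, with 18 above 0, and oxidative phosphorylation 1 and 0 of 40, with 22 above 0 (Ndufs3 0.05). Matrix genes had 2 and 1 of 24, with 19 above 0, although the smallest p was at Lamb1 (-0.21). Interferon and inflammatory genes had 0 and 2 of 17, with 10 below 0 (C4b -0.26). The 13 mitochondrially encoded genes had 0 and 0, and their median of -0.01 turned to 0.009 under quantile normalization. That mean joins opposite signs, with a median of 0.055 at T72 (11 above 0, 2 below) and -0.058 at T78 (1 above, 12 below). Under quantile normalization these medians were 0.006 and 0.007. At an unadjusted p below 0.05, as used for these counts, 6.11% of all genes were higher and 4.79% lower.

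Day 3 was then compared with Day 2 in deprived mice alone, as the mean of T72 minus T48 and T78 minus T54. This called 31 genes higher (0.224%) and 9 lower (0.065%). Mgll had the smallest p, with log2 levels of 6.74, 6.85 and 6.88 at T48 and 7.14 to 7.19 at T72, and rose by 0.22 (SE 0.03, adjusted p = 0.000425). Faah rose by 0.14 (adjusted p = 0.021). Robo3, an axon guidance receptor, had 4.80, 4.94 and 4.98 at T48 and 5.42, 5.51 and 5.61 at T72, and rose by 0.42 (SE 0.07, adjusted p = 0.00175). Spag5, a protein of the mitotic spindle, had 4.27, 4.32 and 4.53 at T48 and 4.87, 4.93 and 4.94 at T72, and rose by 0.40 (adjusted p = 0.000948). For both genes the T48 and T72 animals did not overlap. Against ZT0 controls, Robo3 differed by -0.48 at T48 and by 0.13 at T72, and Spag5 by -0.38 and 0.16. At T72 both genes overlapped the controls, so the rise was mostly from low T48 levels. Cyp11a1, the side-chain cleavage enzyme of steroid synthesis, rose by 0.36, Igfn1 by 0.35 and Hr, a nuclear corepressor, by 0.26. Over 22 alternatives the call was lost in 1 each for Robo3 and Spag5, in 5 for Igfn1 and in 11 each for Cyp11a1 and Hr.

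The falls from Day 2 to Day 3 were led by Nr4a2, an orphan nuclear receptor and immediate early gene. It had log2 levels of 4.86, 5.01 and 5.08 at T48 and 3.03, 3.84 and 4.19 at T72, beside 3.67 to 4.92 in ZT0 controls. It fell by 0.89 (SE 0.20, adjusted p = 0.0327). Cabp7, a calcium-binding protein, fell by 0.39, Susd1 by 0.27, Sccpdh by 0.27 and Gria1, a subunit of AMPA-type glutamate receptors, by 0.12. These calls were lost in 10 of 22 alternatives for Nr4a2, 5 for Cabp7, 8 for Susd1, 12 for Sccpdh and 14 for Gria1. Dbp, at 6.06 to 6.29 at T48 and 5.85 to 6.19 at T72, was not called in this contrast (-0.10).

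T72 minus T48 alone called 231 genes, while T78 minus T54 alone called 0 (564 at an unadjusted p below 0.05). Of the 40 genes called, 29 were also called in T72 minus T48, 38 had the same sign at both times of day, and 5 had the larger difference in T78 minus T54. With only the groups of the contrast in the limma fit, 0 genes were called (1078 at an unadjusted p below 0.05). At T48 the thalamic or hippocampal markers averaged 3.34 to 3.78 per library, against 3.26 to 3.32 at T72 and 3.14 to 3.35 in ZT0 controls, and 1 of the falling genes, Fibcd1, belongs to that list. Fibcd1 had 2.51, 2.75 and 3.00 at T48 and 1.68 to 1.81 at T72. The oligodendrocyte markers were also lower than on Day 2 for all 12 members, 11 of them at an unadjusted p below 0.05, beside 4.8% of all genes, with none called. The part of tissue dissected at T48 in these calls was not tested. The count of 40 became 11 without T48S1 or T72S4, 14 without T78S4, 15 without T72S2, 16 without T78S3, 19 without T54S1 or T54S4, 21 without T48S3 or T78S2, 62 without T54S2 and 68 without T72S3.

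From Day 3 to Day 8 (T192 and T198) no gene was called (0%, limma, smallest adjusted p of 0.134, 886 genes at an unadjusted p below 0.05). Sowahc (-0.37), Cox6a2 (-0.46), a muscle-type subunit of cytochrome oxidase, and Npy (-0.29), the neuropeptide, had the smallest p among lower genes, and Rpl26 (0.16), Cd209c and Krt77 among higher ones. Of 44 ribosomal protein genes, 15 were higher at an unadjusted p below 0.05, beside 2.34% of all genes. All Day 8 animals are of batch 2 and all Day 3 animals of batch 1, so this contrast depends on the batch term, and no value within a batch exists. Dbp on Day 8 minus Day 3 was -0.40 (adjusted p = 0.524).

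Open chromatin on Day 3 was compared in the same animals over 130727 ATAC-seq peaks. No peak was called at T72 (0%), at T78 (0%) or for the mean (0%), with 6401, 7669 and 6777 peaks at an unadjusted p below 0.05. A count test on reads recovered from the deposited signal (edgeR) also called 0 in each, with 4731, 6672 and 5501. The peak with the smallest p for the mean lies within Ebf3, a transcription factor gene, at chr7:137265472-137266064. Its log2 signal was 0.90, 0.96 and 1.27 at T72 against 1.64 to 2.67 in ZT0 controls, and 1.10, 1.46 and 1.67 at T78 against 1.81 to 3.17. The groups did not overlap at either time, and the mean difference was -1.04 (SE 0.20, adjusted p = 0.20). The peak was chosen by its p over these same libraries, so the lack of overlap is a description. How many of all peaks lay outside their controls was not counted. Among higher peaks, one within Samd5 at chr10:9393360-9393588 had a mean difference of 1.06 and one within Mcm5, a subunit of the replicative helicase, at chr8:75118347-75119222 had 0.65 (adjusted p of 0.587 and 0.62).

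At Dbp no difference in open chromatin was detectable at T72. The peak over the Dbp promoter shown above (chr7:45704708-45705522) had log2 signals of 4.75, 5.12 and 5.29 at T72 against 4.78 to 5.23 in ZT0 controls, a difference of 0.06 (SE 0.14, adjusted p = 1.00). Of 33 named genes, 27 had a promoter window and 24 of these overlapped a peak. The T72 differences were 0.10 at Nr1d1 and 0.06 at Ciart. At Per3 it was 0.28 (adjusted p = 1.00), the largest among the clock genes looked up, which were Dbp, Nr1d1, Ciart, Usp2, Tef, Hlf and Per3. Promoter peaks of the other clock genes were not looked up. The mean differences at Mgll and Faah were -0.06 and -0.10. The median standard error over all peaks was 0.24 at T72, against 0.065 for RNA.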

How the data were processed

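The cortex of each single animal gave a stranded poly(A) RNA-seq library and an ATAC-seq library. The RNA values are log2 levels with an offset of 0.5, batch-adjusted by the authors and deposited as 1 table of 13842 genes. Whether they are scaled by gene length is not stated in the labels or the table, so levels were not compared between genes. The ATAC values are peak signal deposited by the authors for 130727 peaks and were used as log2(signal + 0.5). The submitters' processing notes name kallisto 0.43.0, sleuth 0.29.0, Bowtie2, MACS2 2.1.1 and HTSeq 0.6.1 with builds GRCm38 and mm10. Per the labels, RNA libraries had above 36 M mappable reads (median 55 M) and ATAC libraries above 25 M (median 41 M). Depth per RNA library is unknown from the log2 table.

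All 62 RNA columns, 1 per animal, were fitted with group means and a batch term in limma 3.58.1 (R 4.3.3). The variance prior followed the mean level, with 44 residual df and Benjamini-Hochberg adjustment over all genes. Genes at an adjusted p below 0.05 were called. Adjusted p-values in the text are from limma unless edgeR 4.0.16 is named. Replicates are separate animals. The T72, T78, T48, T54 and T30 animals are of batch 1, while 4 of 8 ZT0 and 2 of 5 ZT6 controls are of batch 2. One ZT0 column (T0N5) merges 2 libraries of 1 animal, 1 labelled batch 1 and the other batch 2. It was counted once, as batch 1, also in the fits of batch 1 alone. In ATAC, 1 deposited column (a repeat library) was not used. Whole reads were recovered from the deposited signal in 51 ATAC libraries (100% of values whole within 0.02) for edgeR's quasi-likelihood test. The code was tested on simulated data.

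The members and lists were chosen with earlier results of these data known. Of the mean difference, up to 12 called genes each way were to be named (same direction at T72 and T78, level above the 25th percentile), at T72 or T78 up to 6 with groups that do not overlap, and in other contrasts 5. Where fewer than 3 passed, the 3 with the smallest p are named as not called. From each of the 31 lists (14 genes stand in 2) called members or the one with the smallest p are named. For the cholesterol list that member is not reported here. Alternatives changed the batch term, the samples, the variance model, the filter, the scaling and the offset, added a replicate block, or left out each animal.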

Additional observations from a re-analysis of the deposited data

Results flagged for a closer look

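Of 156 groups of 4 to 10 control animals tested over 78 named genes, 6 held an animal far from the others, where chance flags about 1 in 20. Ciart was low in the ZT6 control T6N3, at a log2 level of 4.692 with the next animal at 5.246, and Npas2 was high in the same animal, at 5.077 with the next at 4.689. Csnk1d was low in the ZT0 control T0N3 (6.409, next 6.5) and Sowahc was high in it (2.557, next 2.338). Cyp11a1 was low in the ZT6 control J76N2 (2.799, next 3.059). Igfn1 was high in the ZT0 control T0N5 (4.894, next 4.583), the animal whose column merges 2 libraries.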

How the results depend on the processing

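At T72 the count of called genes, 1 in the report, was 5 with no batch term, 2 with low genes left out, with median-centred libraries or under quantile normalization, 1 with an offset of 2, and 1 with the contrast's groups alone, where the gene was Ciart (0.69, adjusted p = 0.03 by limma) and not Dbp. It was 0 in batch 1 alone, with no intensity trend, with robust variance moderation, and with the T24 controls alone, and 0 to 4 when 1 animal was left out (4 without T0N8). At T78 it was 0 in every alternative run. For the mean of both differences it was 16 with no batch term, 1 in batch 1 alone, 2 under quantile normalization, 4 with the T24 controls alone, and 0 to 3 without 1 animal (3 without J76N1). For Day 3 minus Day 2, 40 became 7 in batch 1 alone, 0 with the contrast's groups alone, 231 for T72 minus T48 alone, 0 for T78 minus T54 alone, and 11 to 68 without 1 animal. For Day 8 minus Day 3 it was 18 with no batch term and 0 to 1 without 1 animal. Batch 1 alone and the contrast's groups alone could not be fitted there. The T24-control and single-time settings were chosen after seeing the data. The cause of these changes was not tested.

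Replicate numbers did not pair the animals: same-numbered pairs correlated at a median of -0.02, and 2 of 19 animals correlated best with their own number. With the replicate block the T72 count was 0 (Dbp 0.62, adjusted p = 0.104 by limma), and Day 3 minus Day 2 gave 35. Of 3315 alternatives to 145 values of named genes, 3189 kept direction and side of the threshold, 92 lost the call, 32 gained it and 2 reversed: mt-Nd3 became 0.1302 at T78 and 0.1043 in the mean under quantile normalization. The 3 deprived animals at each time limit the precision.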
